A study of Mus musculus with 6 samples.

Results

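The Ly6 surface proteins were followed in cultured mouse pro-B cells by 3 probe sets on an expression array, 1 for Ly6d and 2 for Ly6e, of 45037 probe sets tested. The 2 genes were among 18193 that the array measured under 1 name. They were chosen by name, as every probe set that the platform's gene table assigns to exactly 1 of Ly6a, Ly6c1, Ly6d and Ly6e. These were 2 of the 4 listed genes. Ly6a is not analysed here, since no probe set carried its name. A single probe set was listed for both Ly6c2 and Ly6c1, so its signal cannot be given to either gene, and it is described apart from the members.

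All cells were Pax5-/- pro-B cells, which are missing the regulator that fixes B lineage identity. They grew on ST2 stromal cells with 5 ng/ml of the cytokine IL-7. In the EBF group they were infected with the Mig-EBF retrovirus, which carries the early B cell transcription factor EBF, and in the control group with the MigR1 retrovirus. GFP-positive cells were sorted after 2 days, and RNA of each group was read on 3 arrays. Pax5 deficiency, culture, infection and sorting were shared by both groups, so the comparison is of added EBF against control virus. The labels number the arrays 1 to 3 within each group and do not say whether they were separate cultures, so the p-values cover array-to-array spread that may be technical only.

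Ly6 proteins are small surface proteins built on a disulphide-rich fold, the Ly6/uPAR domain, and most are held to the outer membrane by a GPI lipid anchor. Several of their genes lie in a cluster on mouse chromosome 15 and serve as markers that separate blood cell stages. Ly6d marks lymphoid progenitors that are biased toward the B lineage, Ly6a encodes the stem cell antigen Sca-1, and Ly6c proteins mark monocytes and other cells. Ly6e, also called thymic shared antigen 1, is carried by immature thymocytes and many other cells, and is known as an interferon-inducible gene.

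Values are intensities in arbitrary linear units, and differences are of log2(intensity + 32), EBF minus control. Array medians lay between 424.3 and 451.3, and the 27 Bacillus control probe sets, for transcripts that mouse cells lack, reached 410.4 at most. Of 13 B lineage marker genes measured, Ebf1 among them, 12 had a mean above that level. Of 5 Ebf1 probe sets, 0 differed past an adjusted p of 0.05 by limma, and 1 was lower in the EBF arrays once the pairing of arrays was fitted. The brightest read 4772, 4756 and 4082 in EBF arrays 1 to 3, against 4204, 4276 and 4029 in control arrays 1 to 3. Nothing given here says if it reads the viral insert, or if the 2 Pax5 probe sets read the deleted exons, so neither gene checks the labels.

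Ly6d read lower in the EBF arrays, by a nearly equal ratio in every same-numbered pair of arrays. Its probe set, 1416930_at, had intensities of 3325, 2647 and 1838 in EBF arrays 1 to 3, against 5627, 4765 and 3212 in control arrays 1 to 3. Array 1 was the highest and array 3 the lowest of each group, and the groups overlapped, because EBF 1 lay just above control 3. The mean was 2603 ± 745 in EBF arrays and 4535 ± 1224 in control arrays (SD, n = 3 each), which is 1.74-fold lower with EBF on the log scale. With the arrays taken as unpaired, the log2 difference of -0.80 ± 0.24 (SE) did not pass the threshold (limma adjusted p = 0.163; 95% interval -1.35 to -0.24).

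The same-numbered arrays gave a much narrower result for Ly6d. The ratio of EBF to control intensity was 0.591 in pair 1, 0.556 in pair 2 and 0.572 in pair 3. On the log2 scale these differences were -0.75, -0.84 and -0.79, with an SD of 0.043. The SD between arrays within a group was 0.43 in the EBF group and 0.41 in the control group. With the replicate number entered as a block, the standard error fell to 0.074 and the difference passed (limma blocked adjusted p = 6.11e-04; 95% interval -0.96 to -0.63). The pairing is read from the data, as the arrays' shared deviations across the whole array, and the labels give the numbers alone.

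Ly6e is represented by 2 probe sets, and neither passed in either fit. The brighter, 1453304_s_at, read 19280, 19017 and 18493 in EBF arrays 1 to 3, against 18404, 17366 and 17699 in control arrays 1 to 3. All EBF arrays lay above all control arrays, by a small margin. Its means were 18930 ± 400.4 in EBF arrays and 17823 ± 530 in control arrays (SD, n = 3 each). The log2 difference was 0.09 ± 0.07 (SE; limma adjusted p = 0.507, blocked 0.505). The 95% interval of that difference ran from -0.07 to 0.24.

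The other Ly6e probe set, 1439773_at, read 2084, 2288 and 1902 in EBF arrays 1 to 3, against 1473, 2001 and 1884 in control arrays 1 to 3. Its groups overlapped, and control 1 was the lowest array. The log2 difference was 0.23 ± 0.12 (SE; limma adjusted p = 0.341, blocked 0.174; 95% interval -0.05 to 0.51). By pair it was 0.49, 0.19 and 0.01, so that pair 1 held most of it. Without control 1 it was 0.10, and with both arrays of number 3 left out of the blocked fit it was 0.34 and passed (adjusted p = 0.0273). Both Ly6e probe sets were higher with EBF in 3 of 3 pairs, as were 29.5% of all probe sets.

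Of the 3 member probe sets, 0 passed the limma test without the block, where 0.875% of all probe sets did (0.344% higher and 0.531% lower with EBF). Ly6d alone was below 0.05 before adjustment, as were 6.19% of all probe sets in its direction. With the block, 1 of 3 passed, against 7.28% of all probe sets (4.88% higher and 2.4% lower). Groups did not overlap in 1 of 3, the brighter Ly6e probe set, against 23.2% of all probe sets. Ly6d was lower in all 3 pairs, as were 17.3% of all probe sets. All 3 probe sets read above the highest Bacillus control on all 6 arrays, so none of these values was at the lower limit of the array.

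**Figure D1:**
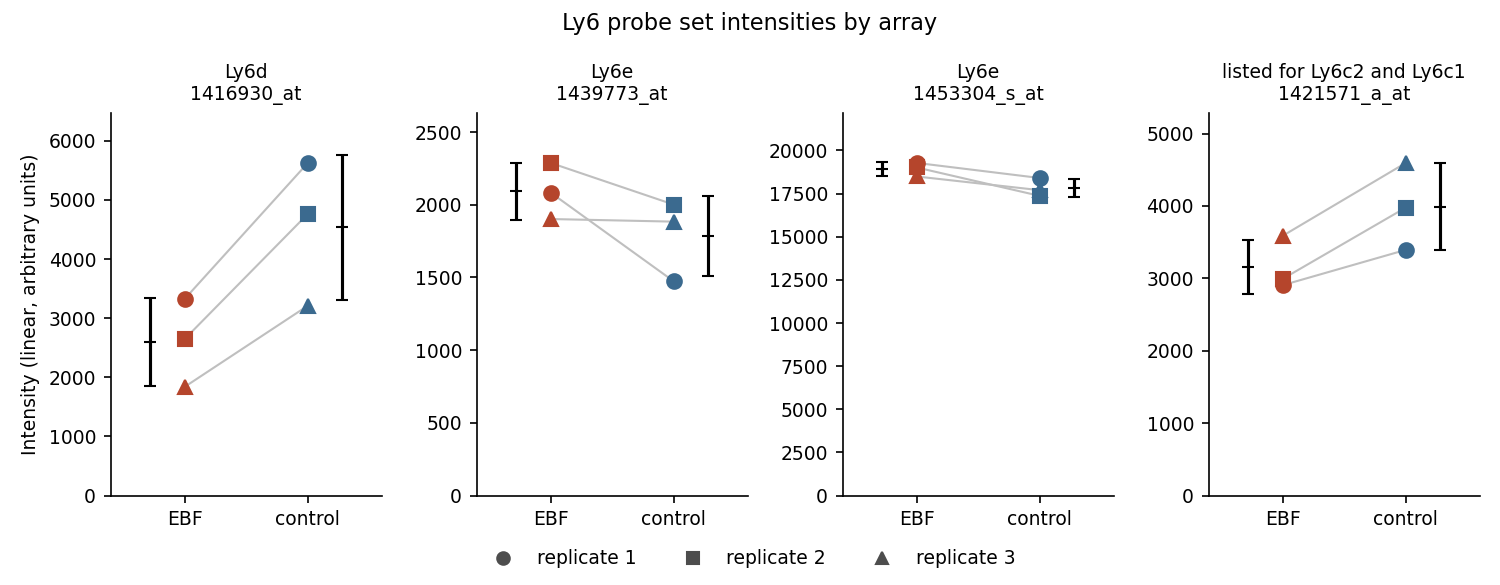
Linear intensity of each Ly6 probe set by array, EBF on the left and control on the right of each panel. Marker shapes give the replicate number, grey lines join same-numbered arrays, and black bars are mean ± SD (n = 3). All 3 lines of Ly6d have their EBF end below their control end, while those of the brighter Ly6e probe set lie close to level.

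The probe set listed for both Ly6c2 and Ly6c1, 1421571_a_at, read 2905, 2991 and 3586 in EBF arrays 1 to 3, against 3393, 3977 and 4594 in control arrays 1 to 3. Array 3 was the highest of each group here, the reverse of Ly6d, and EBF 3 lay above control 1. The log2 difference was -0.33 ± 0.13 (SE) and passed with the block alone (limma adjusted p = 0.218, blocked 0.0373). It was lower with EBF in 3 of 3 pairs, by -0.22, -0.41 and -0.35. Of 6 blocked fits, 4 passed (adjusted p 0.0156 to 0.161), and of 12 unpaired alternatives 0 did.

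The direction of every member probe set was the same under all settings tried, while the calls followed the pairing. For Ly6d, 0 of 13 unpaired alternatives passed (adjusted p 0.126 to 0.378), and the log2 difference lay between -1.02 without control 3 and -0.51 without EBF 3 and control 2. All 6 fits with the block passed (adjusted p 5.28e-07 to 0.0209), among them those that left out both arrays of number 1, 2 or 3, with differences from -0.83 to -0.77. The smallest adjusted p came without number 3, where the SE was 0.106, larger than the 0.074 of the full blocked fit. It therefore does not mark a tighter estimate. For the brighter Ly6e probe set, 0 of 13 unpaired alternatives and 0 of 6 blocked fits passed.

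**Figure D2:**
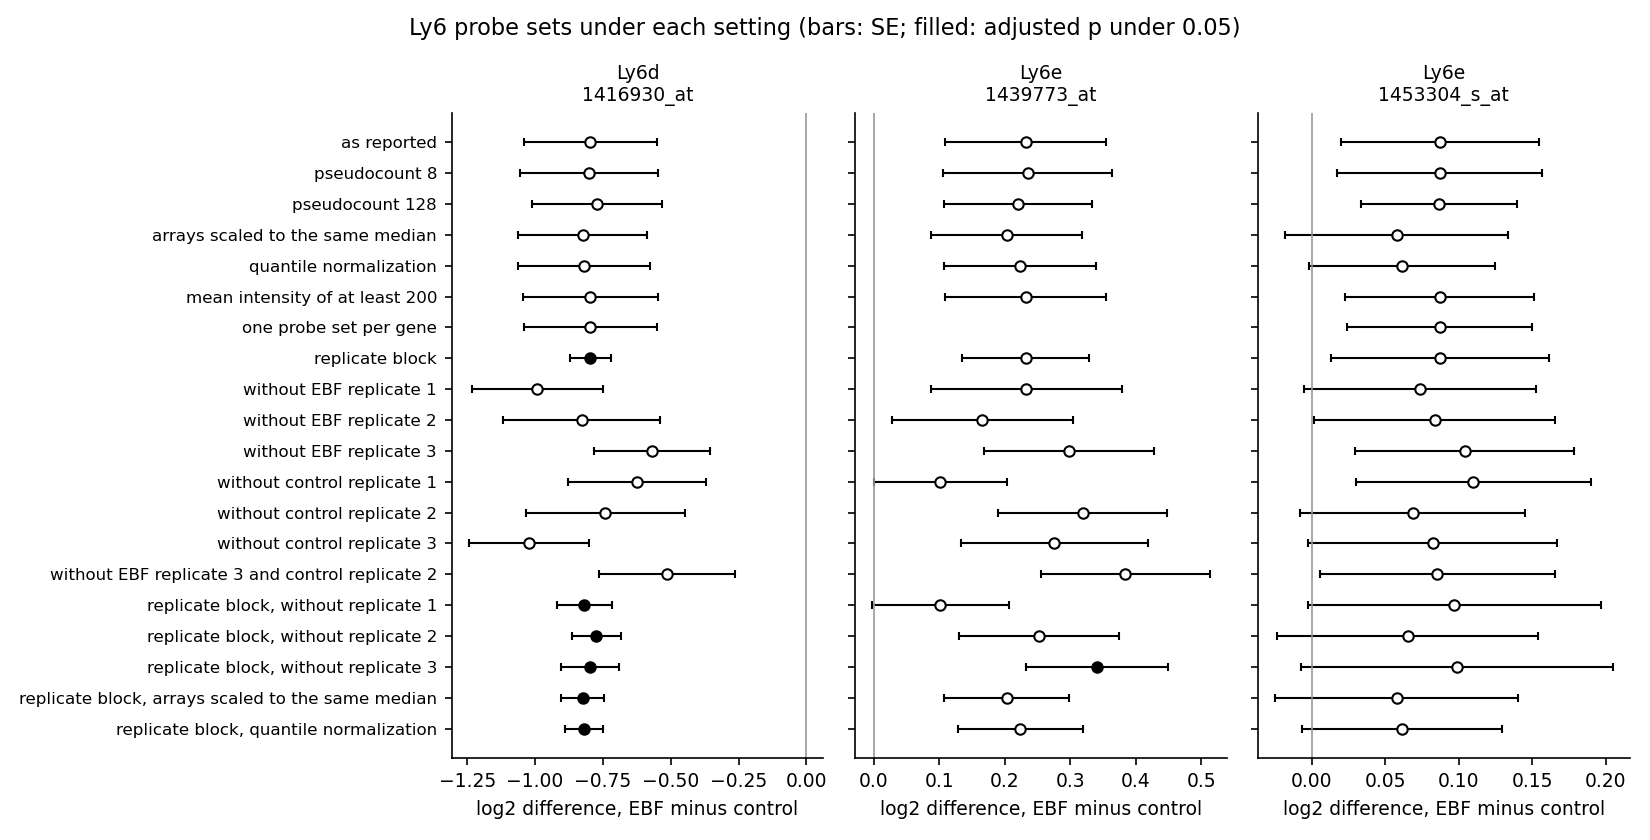
Log2 difference, EBF minus control, of the 3 member probe sets under each setting, with SE bars; filled points had an adjusted p under 0.05. Each panel has its own horizontal scale. Ly6d is filled only in the fits with the replicate block, where its bars are short, and the brighter Ly6e probe set is open in all of them.

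Markers of other cell types were read beside Ly6d, since a bulk array cannot tell fewer cells of a type from less RNA per cell. The 9 markers of plasmacytoid dendritic cells, a cell type that can carry Ly6d, summed to 8438 to 9000 in EBF arrays and 9667 to 9865 in control arrays. Of these 9, 1 was lower (Ccr9, a homing receptor gene) and 0 higher, with a median log2 difference of -0.12. With the block 1 was lower and 1 higher, and the higher one is not named here. Siglech, a defining marker of these cells, averaged 370 ± 9.24 in EBF arrays and 444 ± 11.9 in control arrays (SD, n = 3 each), and passed in neither fit. Of the 9, 8 had a mean over all 6 arrays above the highest Bacillus control, and Siglech did not. The 9 NK cell markers summed to 2747 to 2962 in EBF arrays and 5240 to 6889 in control arrays, with 2 lower (Klrd1 and Nkg7) and 0 higher in either fit. Those 2 were the only NK markers with a mean over all 6 arrays above the highest Bacillus control, and the median log2 difference over the 9 was 0.01. The 13 B lineage markers summed to 75843 to 79569 in EBF arrays and 65932 to 70580 in control arrays, with 1 higher (Vpreb3) and 1 lower (Dntt). With the block 4 were higher (Vpreb3, Igll1, Il7r and Cd79b) and Dntt alone was lower, and the median log2 difference was 0.12. That median is the value of Ebf1, the transduced gene, which is in this list, so neither the median nor the sums are free of it. Among all genes, 0.418% were higher and 0.671% lower, and with the block 4.82% were higher and 2.52% lower. The part of these marker shifts in the Ly6d difference was not tested.

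Sums of the other marker lists overlapped between the groups. They were 18364 to 26983 in EBF arrays and 20472 to 33880 in control arrays for 14 stromal genes, which ST2 cells could bring. For 13 myeloid genes they were 6760 to 7099 in EBF arrays and 6911 to 7544 in control arrays. For 10 T cell genes they were 8208 to 9008 in EBF arrays and 8281 to 9374 in control arrays. The stromal genes had a median log2 difference of -0.27, beside 0.03 for all genes. Their sum was highest in EBF 1 among EBF arrays, where Ly6d was the highest of its group, and in control 3 among control arrays, where Ly6d was the lowest of its group. Of the stromal and T cell genes 0 passed by limma in either fit. Before adjustment, 1 stromal gene was lower, 1 T cell gene lower and 1 higher at p below 0.05. At that level 6.19% of all probe sets were lower, and the share higher was not counted. Of the myeloid genes 1 was lower, the lysozyme gene Lyz2, against 0.671% of all genes lower without the block. No marker was at 0, but the T cell receptor chain genes Cd3g and Cd3d and the NK receptor gene Ncr1 averaged below the highest Bacillus control in both groups.

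Other Ly6/uPAR domain genes measured under 1 name differed less between the groups than Ly6d, and were called at near the share of all genes. Of 44 listed, 29 were measured through 37 probe sets, and 0 passed by limma in either direction, against 1.09% of all genes (0.418% higher and 0.671% lower). Before adjustment, 2 were higher and 4 lower at p below 0.05. At that level 6.19% of all probe sets were lower, and the share higher was not counted. With the block 2 were higher and 0 lower, against 7.34% of all genes (4.82% higher and 2.52% lower). Their median log2 difference was 0.01, beside 0.03 for all genes, and they ran from -0.30 to 0.42, so the -0.80 of Ly6d lay outside their range. That range is limited by dim genes, since 14 of the 29 read above the highest Bacillus control on no array. The probe set listed for both Ly6c2 and Ly6c1 is not among the 29. It had -0.33, beyond the low end of that range, and was lower with the block (limma blocked adjusted p = 0.0373). Groups did not overlap for 6 of 29, against 25.2% of all genes.

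The 2 genes called with the block were Cd177 and Ly6h. Cd177 encodes a neutrophil surface protein and read 407.5, 366.2 and 288.4 in EBF arrays 1 to 3, against 255.1, 266.5 and 244.1 in control arrays 1 to 3. All EBF arrays were higher, although no array exceeded the highest Bacillus control (log2 0.42 ± 0.11 SE; limma adjusted p = 0.142, blocked 0.0280). Ly6h, a family member known from the brain, read 667.7, 609.0 and 564.9 in EBF arrays 1 to 3, against 488.0, 505.6 and 474.2 in control arrays 1 to 3 (log2 0.31 ± 0.08 SE; adjusted p = 0.129, blocked 0.0467). Its groups did not overlap either.

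The list genes with the highest intensity were Plaur, Spaca4 and Lynx1. Plaur encodes the urokinase receptor, and averaged 2348 ± 57.3 in EBF arrays and 2716 ± 151 in control arrays (SD, n = 3 each; log2 -0.21, limma adjusted p = 0.195, blocked 0.143). Spaca4, a sperm membrane protein gene, had a log2 difference of -0.21 (adjusted p = 0.277, blocked 0.155). Lynx1, a modulator of nicotinic receptors, had 0.04 (adjusted p = 0.823, blocked 0.793), with a sign that turned to -0.005 without control 3.

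Probe sets of 1 gene could differ. The 3 probe sets of Ly6g6c had log2 differences of 0.14, -0.21 and 0.08, and those of Ly6k had -0.01 and 0.24, with 0 passing in either fit. Of the 29 genes, 13 read above the highest Bacillus control on all 6 arrays and 14 on none, so about as many were dim as bright.

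**Figure D3:**
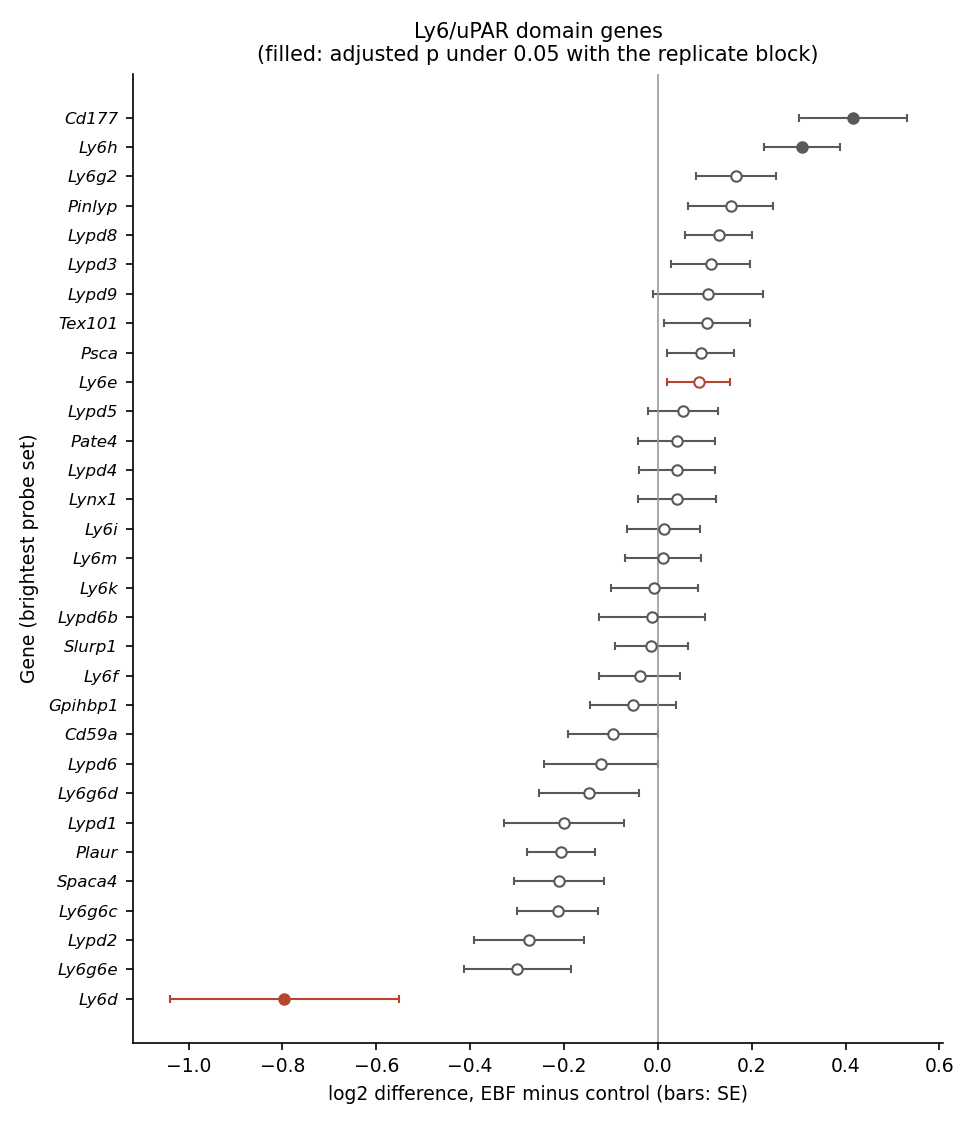
Log2 difference, EBF minus control, with SE bars, for Ly6d and Ly6e (red) and the 29 other measured Ly6/uPAR domain genes (grey), each by its brightest probe set. Filled points passed with the replicate block. The probe set listed for both Ly6c2 and Ly6c1 is not shown. Ly6d lies at -0.80, to the left of all others, which run from -0.30 to 0.42.

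Ly6d and Ly6e both lie on chromosome 15 in the RefSeq gene table of the GRCm38.p6 assembly, with 7 protein-coding genes between them. Among the 8 protein-coding genes on either side of Ly6d, a window chosen after the values were seen, 13 of 16 were measured and 0 passed in either fit. Their log2 differences ran from -0.28 at Lypd2 to 0.29 at Arc, and the 2 measured genes nearest to Ly6d, Lynx1 and Ly6g6g, had 0.04 and 0.10. Around Ly6e, 8 neighbours other than Ly6d were measured under 1 name, with differences from -0.04 to 0.17 and 0 passing in either fit. Ly6c1 and Ly6c2 also lie in that window. The probe set listed for both had -0.33 and passed with the block (limma blocked adjusted p = 0.0373). Within the window of Ly6d, Ly6d itself was the 1 measured gene to pass with the block. Arc (limma blocked adjusted p = 0.0514), Lypd2 (0.0628) and Them6 (0.0706) fell just short. Over all genes, 1.09% passed by limma without the block and 7.34% with it, so 0 of 13 neighbours is not far from that share.

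Genes of GPI anchor synthesis and attachment, on which most Ly6 proteins depend for their place on the surface, showed no call. Of 27 measured, 0 passed by limma in either direction, with or without the block. Before adjustment 3 were higher and 3 lower at p below 0.05, where 6.19% of all probe sets were lower and the share higher was not counted. Of all genes, 1.09% passed without the block and 7.34% with it. Their median log2 difference was -0.01. The smallest p values were those of Mppe1, a remodelling enzyme of the anchor (log2 -0.26 ± 0.08 SE; limma adjusted p = 0.147, blocked 0.0717), and Pigx, a subunit of a mannosyltransferase (-0.25 ± 0.08; 0.166, blocked 0.0876).

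Other surface proteins with a GPI anchor moved in both directions. Of 19 measured genes 1 was higher and 0 lower, and with the block 3 were higher and 5 lower, with a median of 0.04. Of all genes, 0.418% were higher and 0.671% lower, and with the block 4.82% were higher and 2.52% lower. Not every listed gene encodes a protein with such an anchor. The mouse proteins of Fcgr4 and Ulbp1, for example, cross the membrane instead. Gfra2, which binds GDNF-type ligands for the receptor Ret, was the 1 that rose without the block, with 4217, 4766 and 3864 in EBF arrays 1 to 3, against 1682, 1689 and 1146 in control arrays 1 to 3 (log2 1.50 ± 0.15 SE; limma adjusted p = 0.00522). The groups lay far apart, opposite in direction to Ly6d.

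The 5 lower with the block were Thy1, Cd48, Cd52, Prnp and Bst2, named after their values were seen. Of the 3 higher with the block, Gfra2 alone is named here. Thy1, a marker of T cells and early progenitors, read 525.5, 476.8 and 371.2 in EBF arrays 1 to 3, against 700.8, 710.1 and 530.7 in control arrays 1 to 3 (log2 -0.47 ± 0.15 SE; limma adjusted p = 0.164, blocked 0.00926). Array 3 was the lowest of each group, as for Ly6d, and the groups did not overlap. The other 4 had log2 differences of -0.44 for Cd48, a ligand in lymphocyte adhesion, -0.38 for Cd52, -0.35 for the prion protein gene Prnp and -0.32 for Bst2, an antiviral tether. Cd24a, a pro-B cell surface marker with an anchor of this kind, had 0.10 and passed in neither fit.

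Interferon response genes, a class to which Ly6e is usually counted, had a median below 0. Of 39 measured, 2 were lower and 0 higher (11 lower and 2 higher with the block), and the median log2 difference was -0.19, beside 0.03 for all genes. Of all genes, 0.671% were lower and 0.418% higher (2.52% lower and 4.82% higher with the block). Samhd1, which degrades nucleotides and restricts viruses, averaged 2030 ± 311 in EBF arrays and 3430 ± 227 in control arrays (SD, n = 3 each; log2 -0.76 ± 0.11 SE, limma adjusted p = 0.0241). Isg20, an antiviral exonuclease, averaged 636 ± 27.0 in EBF arrays and 1001 ± 85.0 in control arrays (log2 -0.63 ± 0.08 SE, adjusted p = 0.0145). Both lost the call without EBF 1, EBF 2, control 1 or control 2, and Samhd1 also without control 3 (highest adjusted p 0.126 for Samhd1 and 0.0927 for Isg20). In the unpaired fit without EBF 3 and control 2, 5 were lower and 2 higher. The difference between Ly6e and these genes was not tested.

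Stem and progenitor genes, read because Ly6 antigens are used to stage such cells, gave 1 lower and 0 higher of 17 measured, and 3 lower with the block. Of all genes, 0.671% were lower without the block and 2.52% with it. Kit, the receptor for stem cell factor, had the log2 difference closest to that of Ly6d, with 1159, 1053 and 1290 in EBF arrays 1 to 3, against 2329, 1991 and 1832 in control arrays 1 to 3 (-0.79 ± 0.11 SE; limma adjusted p = 0.0187). Unlike Ly6d, its groups did not overlap. Kit lost the call without EBF 1 (adjusted p = 0.0837), EBF 2 (0.0995), control 1 (0.0713) or control 2 (0.0943).

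**Figure D4:**
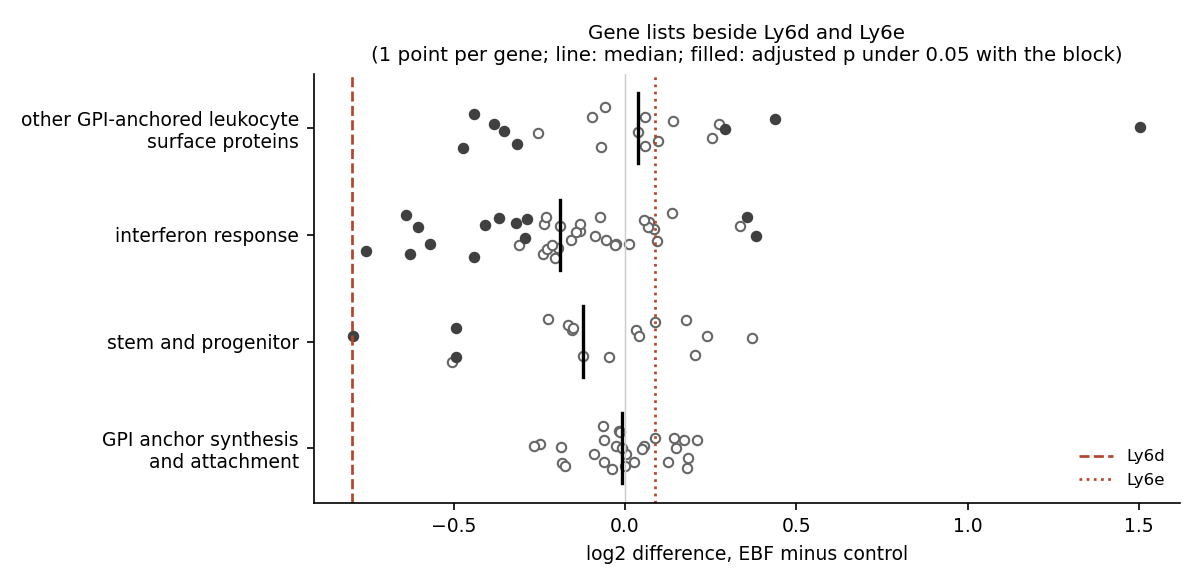
Log2 difference, EBF minus control, of each measured gene of the 4 lists (1 point per gene, spread vertically for sight), with the list's median as a black line. The red lines mark Ly6d (dashed, -0.80) and the brighter Ly6e probe set (dotted, 0.09), and filled points passed with the replicate block. Gfra2 is the point at 1.50, and the interferon list has its median at -0.19.

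Genes were also ranked by the likeness of their profile over the 6 arrays to that of Ly6d or Ly6e. The measure was the root mean square difference between centred log2 profiles, among 14169 genes with a mean intensity of at least 200. The 3 nearest to Ly6d were Fcgr2b, an inhibitory IgG receptor gene (0.187), Ier3, an immediate early gene (0.188), and Ccn3, a matricellular protein gene (0.209). These distances are of the log2 scale, on which Ly6d differed by 0.80 between groups.

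Fcgr2b read 2089, 2442 and 1645 in EBF arrays 1 to 3, against 4094, 3745 and 2696 in control arrays 1 to 3. It had a log2 difference of -0.76, Ier3 of -1.10 and Ccn3 of -0.81. As reported without the block none of the 3 passed (limma adjusted p 0.106, 0.0689 and 0.0575), and with it all 3 did (0.00194, 3.67e-04 and 0.00108). Among the 13 unpaired alternatives, 0 called Fcgr2b, as for Ly6d. Ier3 passed in 3 of the 13, with arrays scaled to the same median (0.0465), without EBF 3 (0.0273) and without control 3 (0.0496). Ccn3 passed in 4, with that scaling (0.0367), with 1 probe set per gene (0.0454), without EBF 3 (0.0313) and without control 3 (0.0195). In all 3 genes, array 3 was the lowest of its group, in EBF and in control arrays alike. They were picked for their distance to Ly6d over these same 6 arrays. The group difference, the low array 3 and the calls with the block that they share with Ly6d therefore follow from the choice.

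The nearest to the brighter Ly6e probe set were Wdr33, an mRNA 3′ end processing gene (0.011), the replication helicase gene Mcm6 (0.011) and the zinc transporter gene Slc39a9 (0.013). Their log2 differences were 0.09, 0.09 and 0.08, and none passed in either fit. Near-flat profiles lie close to each other by this measure.

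**Figure D5:**
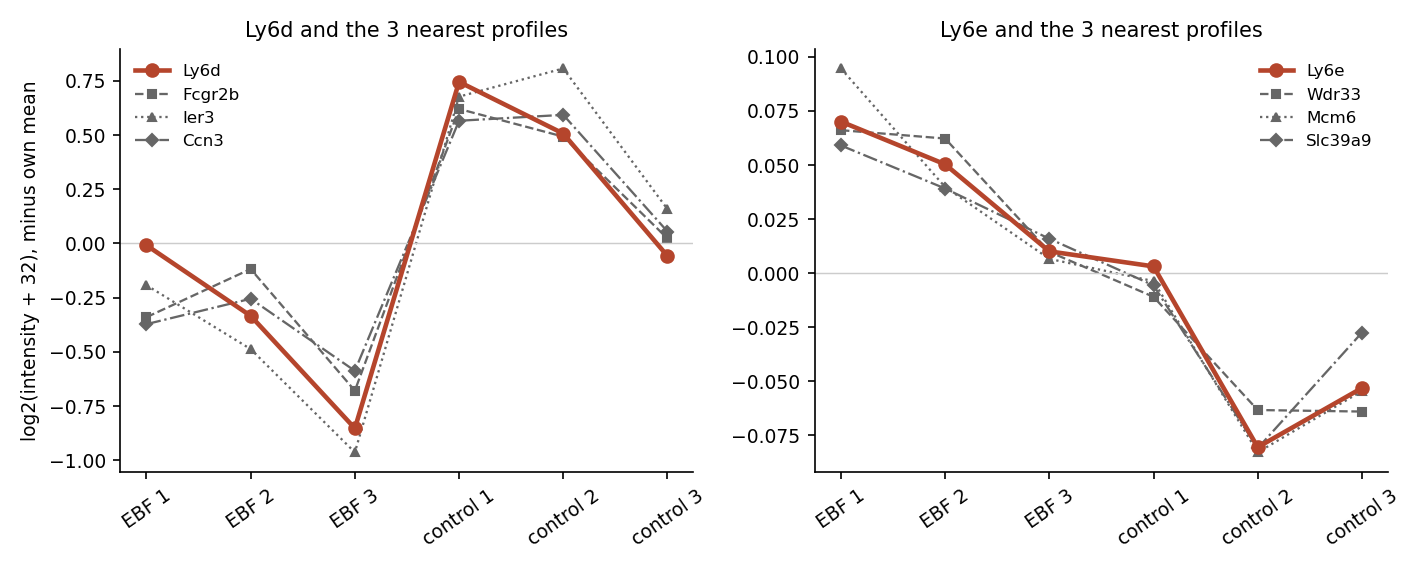
Centred log2(intensity + 32) by array, EBF arrays 1 to 3 on the left and control arrays 1 to 3 on the right, for Ly6d and Ly6e (red) and the 3 genes nearest to each (grey). The vertical scales differ between the panels. Ly6d and the genes picked for their likeness to it are all lower in the EBF arrays, with array 3 the lowest in each group, while the Ly6e panel spans under 0.2 on the log2 scale.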

How the data were processed

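The authors deposited 1 table of probe set intensities on a linear scale, 1 column per array. Biotinylated cRNA was made from 6 microg total RNA, per the labels' protocols. No source used here gives the array software, background step or normalization. The design text names a rat array, whereas the organism label and the platform's gene table are those of mouse. The 45101 probe sets held 64 Affymetrix controls, which were set aside. Of the 45037 tested, 34945 had 1 gene symbol, 932 several and 9160 none listed, and 18193 genes were each represented by their brightest probe set in the lists.

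Intensities were used as deposited (median per array 424.3 to 451.3) and taken to log2(intensity + 32), which understates changes of dim probe sets. EBF and control were compared with limma 3.58.1 in R 4.3.3 (lmFit, eBayes, two-sided), with Benjamini-Hochberg adjustment over all tested probe sets and a threshold of 0.05. The code was tested on simulated data. No detection calls were used, and the number of arrays limits the precision. No 2 arrays shared more than 24 equal values.

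Same-numbered arrays' deviations from their group means correlated by 0.318, 0.255 and 0.503, all above the limit of 0.1. Arrays of different number correlated by -0.371 to 0.0581. Deviations from a mean of 3 arrays are tied to each other, so these values are not independent. On this ground the numbers were taken to pair the arrays, and the blocked value is given where it changes a call. The members, the 5 gene lists, the 6 marker lists and the tests were chosen with earlier results of these data known. From each gene list were named the 2 largest increases and decreases among called genes, or the 2 smallest p values. From the Ly6/uPAR list were also named every gene called in either fit and the 3 of highest intensity, and for each member the 3 nearest profiles, clone-type symbols left out. Other names were chosen after their values were seen. Alternatives were other pseudocounts, scalings, filters, arrays left out and the block.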

Additional observations from a re-analysis of the deposited data

How the results depend on the processing

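With 3 arrays per group, calls depended on the pairing and on single arrays; the directions of the members did not change under any setting tried. Ly6d was called at -0.796 with the replicate block, and in blocked fits chosen after seeing the data at -0.825 with arrays scaled to the same median, at -0.819 after quantile normalization and at -0.818 to -0.774 with 1 number left out (-0.797 without number 3). The dimmer Ly6e probe set passed in 1 such fit, at 0.341, and the block changed no other call of a member. Over the whole array 155 probe sets were called higher and 239 lower. The block called 2199 and 1081, the lower pseudocount 103 higher, 1 probe set per gene 155 lower, and the fit without EBF 3 and control 2 called 1386 and 501. Leaving out 1 array gave 32 (without control 2) to 3045 (without EBF 3) higher and 43 (without EBF 2) to 1242 (without EBF 3) lower. In the Ly6/uPAR list, the block called 2 higher, and leaving out 1 array 0 to 2 higher and 0 to 2 lower, with 1 higher without EBF 3 and control 2. In the GPI anchor list, leaving out 1 array gave 0 to 1 lower. Among other GPI-anchored proteins, the block called 3 higher and 5 lower, leaving out 1 array 1 to 3 higher and 0 to 2 lower, and the higher pseudocount, quantile normalization, the filter on dim probe sets and 1 probe set per gene each 1 lower. Among interferon genes, the block called 2 higher and 11 lower, leaving out 1 array 0 to 3 higher and 0 to 9 lower, and the fit without EBF 3 and control 2 called 2 and 5. Among stem and progenitor genes, the block called 3 lower and leaving out 1 array 0 to 3. The sign of Lynx1 turned to -0.00466 without control 3, within a range reaching 0.129 without EBF 3 and control 2. The cause of these shifts was not tested.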
